A study of Mus musculus with 8 samples.

Results

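The genes described are 36 mouse genes of cholesterol and fatty acid synthesis and their control, chosen by symbol from a table of 78298 transcript rows. Each symbol matched 1 row. They were measured by poly(A) RNA-seq in wild-type NIH3T3 cells, a mouse fibroblast line kept in serum-containing medium, in 4 libraries treated with Mic-628 and 4 treated with vehicle, both for 1 day. Mic-628 is the only compound the labels name, and the series title speaks of an inducer of Period1. The dose is not given in the sources used here, and the data come from a single cell line. Each library carries a batch number from 1 to 4, shared by 1 library of each group. No label states that replicates were grown separately, and the p-values therefore rest on a spread between libraries that may be technical in part or whole.

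Cells make cholesterol from acetyl-CoA through mevalonate and squalene, and fatty acids from acetyl-CoA through malonyl-CoA. The transcription factors SREBP-1 (gene Srebf1) and SREBP-2 (Srebf2) drive most of the genes of both routes. SCAP carries them from the endoplasmic reticulum to the Golgi for cleavage when sterols are low, and the INSIG proteins hold SCAP back when sterols are high. The oxysterol-sensing LXR receptors act on the other side: in mouse cells they raise the exporters Abca1 and Abcg1, and also Srebf1 and Fasn. NIH3T3 cells, like other fibroblasts, run both routes in culture.

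Promoter sequences from RefSeq (GRCm38.p6, 250 bases before to 50 after the start site) matched 28 of the 36 genes; Scd1, Scd2, Fdft1, Fdps, Sqle, Stard4, Abcg1 and Fads1 were not matched. They are shown for the motifs by which the SREBPs, the LXRs and the clock factors are known to act, and the motifs were chosen after the changes in expression were known. Each motif was searched on both strands, and matches of different motifs did not overlap in these genes. The direct repeat read by LXR receptors was searched as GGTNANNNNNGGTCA, the sterol element read by SREBPs as TCACNCCAC, and the E-box, which both the SREBPs and CLOCK with BMAL1 can bind, as CACGTG. In the stretches printed here, 5′ to 3′ in the direction of the gene, capitals mark the matches. The repeat lies on the opposite strand in all 3 stretches that hold it, so it reads there as its reverse complement.
Abca1: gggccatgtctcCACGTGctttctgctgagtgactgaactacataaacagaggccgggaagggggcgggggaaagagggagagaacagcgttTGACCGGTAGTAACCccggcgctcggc
Fasn: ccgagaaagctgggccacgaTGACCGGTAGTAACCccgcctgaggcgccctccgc
Srebf1: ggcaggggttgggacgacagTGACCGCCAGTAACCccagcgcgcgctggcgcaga
Hmgcs1: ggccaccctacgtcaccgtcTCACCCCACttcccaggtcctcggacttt
Elovl5: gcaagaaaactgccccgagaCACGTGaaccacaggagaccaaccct

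These stretches lie on GRCm38.p6 at chr4:53159936-53160054 (minus strand) for Abca1, chr11:120824738-120824792 (minus) for Fasn, chr11:60210619-60210673 (minus) for Srebf1, chr13:119690194-119690242 (plus) for Hmgcs1 and chr9:77917184-77917229 (plus) for Elovl5. The 15 matched bases of the direct repeat were the same in Abca1 and Fasn. Of the 28 genes, 3 held the direct repeat (10.7%). The shares were 0.226% of all 27025 genes in the promoter table and 0.162% of the 9852 whose symbol was tested for expression. All 3 are genes named above as raised by LXRs, and all 3 have T at the open base of GGTNA. The choice of genes and the spelling may both favour this share, so it is no independent test. In Srebf1 the repeat was at 1 of 3 listed start sites. The E-box was in 7 genes (25%), against 8.09% of all genes and 11.8% of those tested: Abca1, Dhcr7, Elovl5, Hsd17b7, Insig1, Sc5d and Scap. In Dhcr7 it was likewise at 1 of 3 start sites. The sterol element as spelled was in Hmgcs1 alone (3.57%), against 1.44% of all genes, and its absence elsewhere says only that those letters are not in the window.

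Each library held 18.1 M to 23.2 M counts over all rows (M, mega), or 92.3% to 93.2% of its total in the file header. Per1 was 5.79-fold higher with Mic-628 (95% interval 5.42 to 6.18), the direction the series title gives. Of 10 fibroblast markers all were expressed, 0 rose and 5 fell, where 2.13% of all rows tested rose and 2.25% fell. Col1a1, Thy1, Pdgfra, Pdgfrb and S100a4 were not called. The summed level of the 10 was 4711 to 4815 FPKM in Mic-628 libraries and 5379 to 5591 FPKM in vehicle libraries. Vim (mean 1831 FPKM with Mic-628, 2127 with vehicle) and Fn1 (1320 with Mic-628, 1599 with vehicle) made up most of this sum. FPKM is the read count scaled by exon length and library total. In bulk RNA, fewer cells of a type and less RNA per cell cannot be told apart. Of 8 markers of adipocytes, a cell type rich in lipid synthesis, only Fabp4 was high enough to be tested. Adipoq, Cebpa and Lep had 0 counts in all 8 libraries, and the summed adipocyte level was 0.85 to 1.17 FPKM with Mic-628 and 0.411 to 0.696 FPKM with vehicle. The summed level was also low for 4 epithelial markers (0.491 to 0.748 FPKM with Mic-628, 0.307 to 0.524 FPKM with vehicle) and 3 endothelial markers (0.091 to 0.121 FPKM with Mic-628, 0.084 to 0.163 FPKM with vehicle). No endothelial marker was high enough to be tested, and Krt8 was the only epithelial marker that was. Neither Fabp4 nor Krt8 was called, and both lay higher with Mic-628. Fabp4 had a log2 fold change of 0.91 (edgeR adjusted p = 0.0748), and its FPKM ranges did not overlap. Krt8 had a log2 fold change of 0.49 (edgeR adjusted p = 0.258), and its ranges overlapped.

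Transcripts of both routes were present over a wide range of levels. Scd2, which encodes a stearoyl-CoA desaturase, had the highest mean in vehicle libraries and the next to highest in Mic-628 libraries, at 385.3 ± 10.1 FPKM with Mic-628 and 425.4 ± 9.93 FPKM with vehicle (SD, n = 4 each). Fdps, the farnesyl diphosphate synthase gene, had the higher mean of this pair with Mic-628 and the lower with vehicle, at 390.4 ± 16.7 FPKM with Mic-628 and 385.2 ± 11.8 FPKM with vehicle (SD, n = 4 each). In the Mic-628 group the ranges of these genes met, 375.7 to 394.3 FPKM for Scd2 and 371.5 to 406.6 FPKM for Fdps, while in vehicle libraries every Scd2 value was above every Fdps value. Acly, Fads1, Msmo1, Sqle, Hmgcs1, Fads2 and Cyp51 came next, with means of 79.2 to 107.1 FPKM with Mic-628 and 74.2 to 107.5 FPKM with vehicle. Among neighbours in that order, Msmo1 and Sqle overlapped in vehicle libraries and the others did not. The lowest synthesis genes were Hsd17b7 (mean 6.39 FPKM with Mic-628, 6.42 with vehicle) and Dhcr7 (4.91 with Mic-628, 5.34 with vehicle), and the exporter Abca1 was below 1.1 FPKM in every library. Among the 35 genes with a transcript to compare, which leaves out Idi1, the levels of Fdps, Acat2 and Acaca are least certain, because 69.6%, 35.1% and 42.7% of their 101-base stretches, a read's length, also occur in GENCODE vM21 transcripts of other genes, mostly Gm43738, Acat3 and Gm5182.

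**Figure D1:**
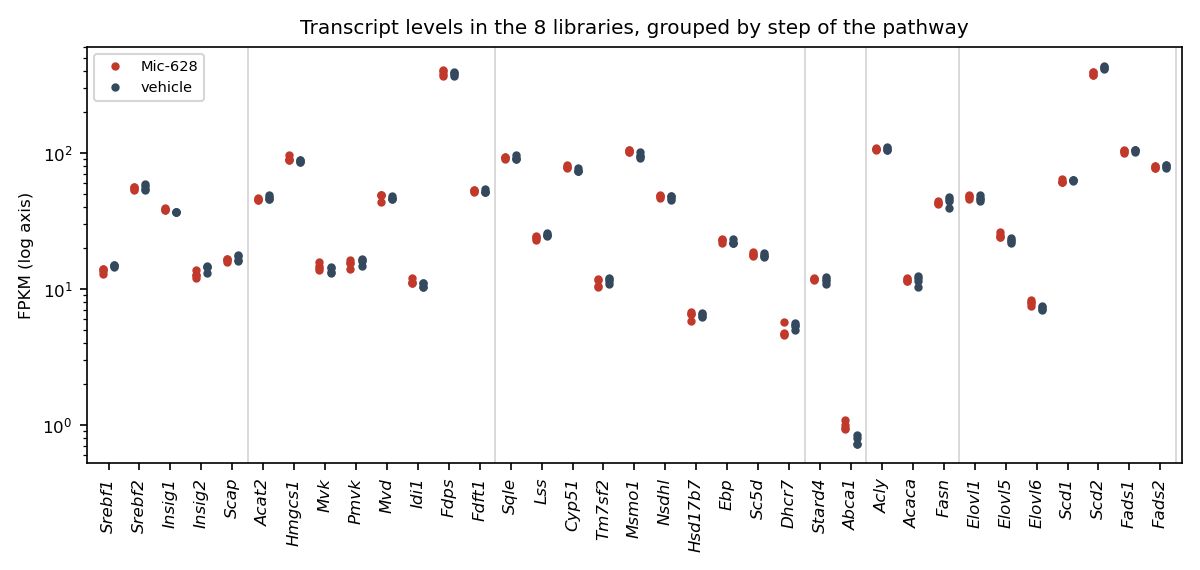
FPKM (log axis) of 35 genes in each of the 4 Mic-628 (red) and 4 vehicle (dark blue) libraries, one column per gene, ordered by role with grey lines between roles; Abcg1 is left out because it had 0 counts. Scd2 and Fdps stand highest, Abca1 is below 1.1 FPKM, and the points of both groups lie close together for every gene.

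Transcript levels across both routes with Mic-628 lay close to those with vehicle. Of 35 genes tested, 4 were called at an edgeR adjusted p under 0.05, which is 11.4%, against 4.37% of all 17128 rows tested. The 3 that rose were Abca1, Msmo1 and Elovl5, where 2.13% of all rows rose, and the 1 that fell was Scd2, where 2.25% of all rows fell. The median log2 fold change was 0.012 over these genes and -0.0040 over all rows; 18 values were above 0 and 17 below. The median size regardless of direction was 0.046, against 0.072 over all rows. Outside Abca1 the log2 fold changes ran from -0.15 to 0.13. At an unadjusted p under 0.05 there were 9 of 35 genes (25.7%), against 17.0% of all rows. The FPKM ranges of the groups did not overlap for 9 genes (25.7%), against 10.7% of all rows. These were Abca1, Msmo1, Elovl5, Idi1, Cyp51 and Insig1, higher with Mic-628, and Scd2, Srebf1 and Lss, lower. The median standard error was 0.037 for these genes and 0.067 over all rows. For the 31 genes not called, the 95% interval of the log2 fold change stayed within -0.3 and 0.3 for all 31 and within -0.2 and 0.2 for 28; the outermost bound was -0.28, for Dhcr7. With the batch number as a block in edgeR, Abca1 and Scd2 were called and Msmo1 and Elovl5 were not (adjusted p 0.0853 and 0.0943).

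**Figure D2:**
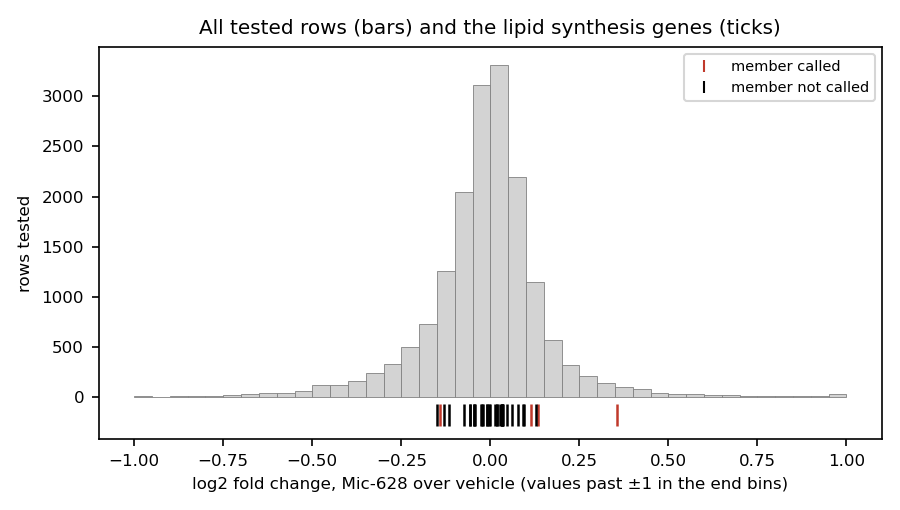
Number of tested rows (bars, 0.05-wide bins) by log2 fold change, Mic-628 over vehicle, with the 35 lipid genes as ticks below, red where called (adjusted p under 0.05) and black where not. Apart from Abca1 at 0.36, the ticks lie between -0.15 and 0.13, in the middle of the distribution.

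**Figure D3:**
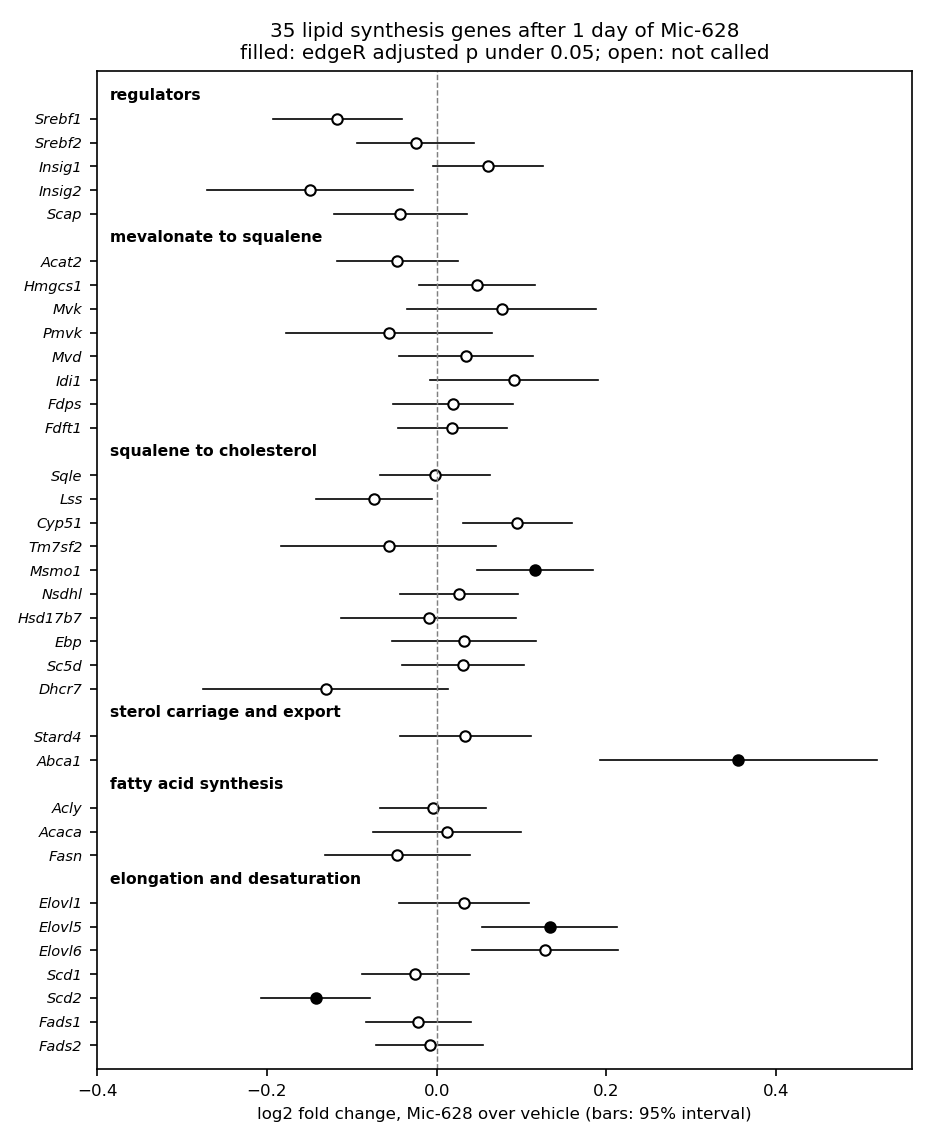
Log2 fold change, Mic-628 over vehicle (points), with its 95% interval (bars) for each of the 35 tested genes, grouped by role; filled points were called at an adjusted p under 0.05. Abca1, Msmo1 and Elovl5 are filled to the right of 0 and Scd2 to the left.

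None of the 5 regulators was called. Srebf1 (chromosome 11, 60089915 to 60111430 on mm39, minus strand) had 12.9, 14.0, 13.6 and 14.1 FPKM in Mic-628 libraries 1 to 4, against 14.5, 15.0, 14.8 and 14.9 FPKM in vehicle libraries 1 to 4. The ranges did not overlap and all 4 batch pairs were lower with Mic-628, but the gene missed the threshold, at a log2 fold change of -0.12 with SE 0.037 and an edgeR adjusted p of 0.0742. Srebf2, the main factor of the cholesterol branch, had 53.7 to 56.0 FPKM with Mic-628 and 53.6 to 58.7 FPKM with vehicle, and the Mic-628 range lay inside the vehicle range. Its log2 fold change was -0.025 (95% interval -0.093 to 0.044). Scap, the escort protein gene, had 15.8 to 16.7 FPKM with Mic-628 and 16.2 to 17.7 FPKM with vehicle (log2 fold change -0.043). The transcript of Srebf1 stood at 0.248 of the level of Srebf2 with Mic-628 and 0.264 with vehicle, per length. The difference in this log2 ratio, -0.095, did not pass the exact permutation test over the 8 libraries (two-sided p = 0.0571, adjusted over 3 ratios 0.0571).

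The INSIG genes had values on opposite sides of 0. Insig1, itself raised by SREBPs in mouse and human cells, had 39.1, 37.8, 38.6 and 38.3 FPKM in Mic-628 libraries 1 to 4, against 36.9, 36.9, 37.0 and 36.7 FPKM in vehicle libraries 1 to 4. Every Mic-628 value was above every vehicle value, but the log2 fold change was 0.061 (95% interval -0.0042 to 0.13; edgeR adjusted p = 0.334). Insig2 had 12.7, 12.1, 12.6 and 13.7 FPKM in Mic-628 libraries 1 to 4, against 14.4, 14.4, 14.7 and 13.2 FPKM in vehicle libraries 1 to 4. In batch 4 the Mic-628 library was the higher of the pair, so the ranges overlapped, and Insig2 was not called, at -0.15 on the log2 scale with SE 0.059 and an edgeR adjusted p of 0.174. The Insig1 transcript had 3.01 times the level of Insig2 with Mic-628 and 2.60 times with vehicle, per length. The log2 ratio was 1.59 ± 0.072 with Mic-628 and 1.38 ± 0.067 with vehicle (SD, n = 4 each). The difference of 0.21 had an exact permutation p of 0.0286, the smallest that 4 libraries against 4 allow, and 0.0429 adjusted over the 3 ratios. Paired by batch, the 4 differences gave the same mean and a two-sided exact permutation p of 0.125, and a design of 4 pairs cannot go lower. Leaving out any 1 library other than Mic-628 replicate 4 gave an unpaired exact permutation p of 0.0571.

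**Figure D4:**
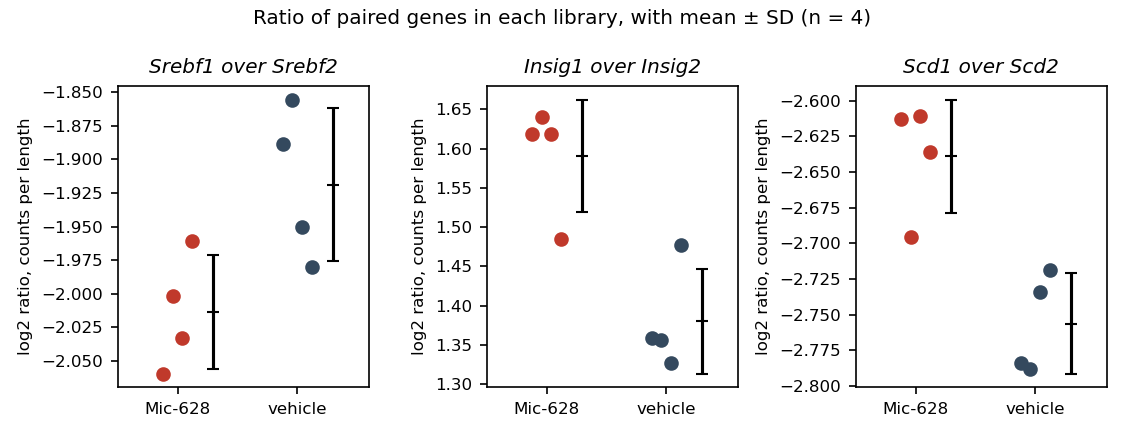
Log2 ratio of read counts per length for 3 gene pairs in each library, Mic-628 (red) left of vehicle (dark blue), with mean ± SD in black (n = 4 a group); each panel has its own axis, which does not start at 0. The groups do not overlap for Insig1 over Insig2 and Scd1 over Scd2, and overlap for Srebf1 over Srebf2.

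None of the 8 genes from acetyl-CoA to squalene was called, and the median log2 fold change was 0.027. Acat2, which joins acetyl-CoA units, had a log2 fold change of -0.046, and Hmgcs1, which makes HMG-CoA, 0.047. Hmgcs1 had 88.1 to 96.1 FPKM with Mic-628 and 86.1 to 89.5 FPKM with vehicle, and Mic-628 replicate 1 held the highest value. The kinases Mvk (0.077) and Pmvk (-0.056) and the decarboxylase Mvd (0.035) act next on mevalonate and its phosphates. Idi1, the isopentenyl diphosphate isomerase gene, had 11.173, 11.001, 11.045 and 12.13 FPKM in Mic-628 libraries 1 to 4, against 10.989, 10.971, 10.381 and 10.257 FPKM in vehicle libraries 1 to 4. These ranges did not overlap, though only just, and the gene was not called: its log2 change was 0.091, its SE 0.048 and its edgeR adjusted p 0.344. Fdps and Fdft1, the squalene synthase gene, had log2 fold changes of 0.020 and 0.018. All 8 intervals lay within -0.2 and 0.2.

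Of the 10 genes from squalene to cholesterol, 1 rose and 9 were not called. Msmo1, which encodes the oxidase that removes methyl groups at carbon 4 of the sterol ring (transcript ENSMUST00000034015.11, chromosome 8, 65171173 to 65186826 on mm39, minus strand), had 101.8, 104.5, 105.6 and 102.2 FPKM in Mic-628 libraries 1 to 4, against 101.3, 94.8, 91.4 and 94.9 FPKM in vehicle libraries 1 to 4. The lowest Mic-628 value was just above vehicle replicate 1, which stood apart from the other vehicle libraries. Msmo1 rose by 8.34%, in 4 of 4 batch pairs, with a log2 fold change of 0.12 (95% interval 0.047 to 0.18) and an edgeR adjusted p of 0.0454. With the replicate block the adjusted p was 0.0853. The call ended without vehicle replicate 2, 3 or 4 or without any 1 of the 4 Mic-628 libraries (adjusted p 0.0569 to 0.179), and the log2 fold change was 0.14 without vehicle replicate 1 (edgeR adjusted p = 0.00403).

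Cyp51, the lanosterol demethylase gene, upstream of Msmo1 in the route, had 81.2, 77.4, 79.3 and 79.3 FPKM in Mic-628 libraries 1 to 4, against 77.0, 73.7, 73.1 and 73.2 FPKM in vehicle libraries 1 to 4. All Mic-628 values were above all vehicle values, but Cyp51 was not called at a log2 change of 0.095 with SE 0.031 and an edgeR adjusted p of 0.0854. Lss, which closes the sterol ring system, lay the other way, with 23.0 to 24.4 FPKM with Mic-628 and 24.5 to 26.0 FPKM with vehicle (log2 fold change -0.074, edgeR adjusted p = 0.255). Sqle, the squalene epoxidase gene and a rate-limiting step, had 90.5 to 93.4 FPKM with Mic-628 and 89.9 to 96.5 FPKM with vehicle. Its log2 fold change was -0.0015 (95% interval -0.066 to 0.063), the smallest in size of the 35, and its sign changed with the scaling. Dhcr7, the gene of a reductase late in the route, was 5.70, 4.58, 4.64 and 4.72 FPKM in Mic-628 libraries 1 to 4, against 5.46, 5.58, 5.02 and 5.32 FPKM in vehicle libraries 1 to 4. Mic-628 replicate 1 was the highest of the 8 and the other 3 Mic-628 libraries were the lowest, and Dhcr7 was not called, at -0.13 on the log2 scale with SE 0.070 and an edgeR adjusted p of 0.351. The remaining 5 genes, Tm7sf2, Nsdhl, Hsd17b7, Ebp and Sc5d, had log2 fold changes from -0.057 to 0.032.

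Among the genes of sterol carriage and export, Abca1 showed the largest change of the 35. Abca1 encodes the membrane transporter that passes cholesterol to apolipoproteins outside the cell (transcript ENSMUST00000030010.4, chromosome 4, 53030787 to 53159895 on mm39, minus strand). It had 0.942, 1.001, 0.934 and 1.08 FPKM in Mic-628 libraries 1 to 4, against 0.720, 0.796, 0.844 and 0.724 FPKM in vehicle libraries 1 to 4. All Mic-628 libraries were above all vehicle libraries. The rise was 1.28-fold (95% interval 1.14 to 1.43), or 0.36 on the log2 scale with SE 0.079, and the edgeR adjusted p was 0.00821. The transcript was scarce, with 188 to 255 reads per Mic-628 library and 159.5 to 193.5 per vehicle library. The call held without any single library, but not without both libraries of batch 2 or of batch 4 (adjusted p 0.0526 and 0.0808). It also ended with the block in DESeq2 (adjusted p 0.283) and by limma at either pseudocount. The log2 difference was 0.17 on log2(FPKM + 1) (limma adjusted p = 0.242) and 0.32 on log2(FPKM + 0.1) (limma adjusted p = 0.254). Blood and macrophage markers, a lineage rich in Abca1, summed to 8.81 to 9.58 FPKM over 4 genes with Mic-628 and 7.99 to 8.62 FPKM with vehicle. None of them was called, and Adgre1 had 0 counts in all 8 libraries. Cd68 and Csf1r, the 2 tested, both lay higher with Mic-628. Cd68 had a log2 fold change of 0.18 (edgeR adjusted p = 0.260), and its FPKM ranges did not overlap. Csf1r had a log2 fold change of 0.21 (edgeR adjusted p = 0.149), and its ranges overlapped. The part of these markers in the Abca1 result was not tested.

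Abcg1, the partner exporter that loads mature lipoprotein particles, had 0 counts in all 8 libraries, which allows up to 0.0206 to 0.0263 FPKM per library at 3 counts (counting error only). It was not tested. Stard4, a soluble carrier that moves cholesterol between membranes, had 11.605 to 12.005 FPKM with Mic-628 and 10.961 to 12.17 FPKM with vehicle (log2 fold change 0.034). Of the 3 genes that hold the LXR-type direct repeat in the stretches printed, Abca1 alone was called. Fasn and Srebf1 had log2 fold changes of -0.046 and -0.12. The Srebf1 repeat lies before a single listed start site, and whether the counted Srebf1 transcript starts there was not tested.

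The enzymes that build palmitate were not called. Acly, which supplies cytosolic acetyl-CoA from citrate, had 104.7 to 109.5 FPKM with Mic-628 and 105.5 to 110.4 FPKM with vehicle (log2 fold change -0.0041). Acaca, which makes malonyl-CoA, had a log2 fold change of 0.012. Fasn, the fatty acid synthase gene, had 41.8, 44.3, 43.1 and 43.2 FPKM in Mic-628 libraries 1 to 4, against 39.7, 44.5, 46.1 and 47.7 FPKM in vehicle libraries 1 to 4. The vehicle libraries spread more widely than the Mic-628 libraries and enclosed them. Its log2 fold change was -0.046 (95% interval -0.13 to 0.039).

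Of the 7 elongation and desaturation genes, Scd2 fell, Elovl5 rose and 5 were not called. Scd2 (transcript ENSMUST00000026221.7, chromosome 19, 44282113 to 44295303 on mm39, plus strand), the main delta-9 desaturase transcript in these cells, had 394.3, 393.9, 375.7 and 377.5 FPKM in Mic-628 libraries 1 to 4, against 429.2, 437.0, 421.3 and 414.1 FPKM in vehicle libraries 1 to 4. Every Mic-628 library was below every vehicle library. On the log2 scale the difference was -0.14 (95% interval -0.21 to -0.078), a change of -9.40%, with an edgeR adjusted p of 0.00681. The call held without any single library but not without both libraries of batch 2 or of batch 3 (adjusted p 0.0996 and 0.115). Mir5114, a row inside Scd2 on the same strand, moved with it (log2 fold change -0.16) at a mean of 630.1 reads against 50077 for Scd2, and reads of the 2 rows may not be separable.

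Scd1, a desaturase gene near Scd2 on chromosome 19, had 64.4, 60.8, 61.5 and 60.7 FPKM in Mic-628 libraries 1 to 4, against 62.3, 63.3, 63.3 and 62.9 FPKM in vehicle libraries 1 to 4. Mic-628 replicate 1 was the highest of the 8 and the other 3 were the lowest, with a log2 fold change of -0.025 (95% interval -0.088 to 0.038). The Scd1 transcript stood at 0.161 of the level of Scd2 with Mic-628 and 0.148 with vehicle, per length. The log2 ratio differed by 0.12 between groups (-2.64 ± 0.040 with Mic-628, -2.76 ± 0.035 with vehicle; SD, n = 4 each; exact permutation p = 0.0286, adjusted over 3 ratios 0.0429). Paired by batch, the exact permutation p was 0.125, and without any 1 vehicle library the unpaired exact permutation p was 0.0571. Of the 101-base stretches of Scd2, 0.878% occur in Scd1. Of those of Scd1, 2.62% occur in other genes, mostly Scd3 (1.8%). Scd2 had a mean of 50077 reads, against 6098 to 7344.5 reads per library for Scd1, so a small share of Scd2 reads weighs more in Scd1. The part of shared reads in this ratio was not tested.

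Elovl5, which elongates polyunsaturated fatty acids (transcript ENSMUST00000034904.14, chromosome 9, 77824646 to 77891801 on mm39, plus strand), had 26.3, 24.1, 25.1 and 24.0 FPKM in Mic-628 libraries 1 to 4, against 21.8, 23.5, 22.8 and 22.4 FPKM in vehicle libraries 1 to 4. The groups did not overlap, and the rise was 9.68% (0.13 on the log2 scale, with SE 0.038 and an edgeR adjusted p of 0.0471). With the replicate block the adjusted p was 0.0943. It sat close to the threshold, and leaving out any of the 4 vehicle libraries or Mic-628 replicate 1 or 3 ended the call (adjusted p 0.0584 to 0.163). Elovl6, which lengthens palmitate, had 8.33, 8.066, 7.834 and 7.427 FPKM in Mic-628 libraries 1 to 4, against 7.127, 7.393, 7.004 and 7.432 FPKM in vehicle libraries 1 to 4. On the log2 scale Elovl6 was also higher by 0.13 (SE 0.042), but vehicle replicate 4 lay level with Mic-628 replicate 4 and the gene was not called (edgeR adjusted p = 0.0882). The call was reached without Mic-628 replicate 4 (adjusted p = 0.0416). Elovl1 (0.033), which works on saturated very long chains, and the front-end desaturases Fads1 (-0.021) and Fads2 (-0.0081) had intervals within -0.2 and 0.2.

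**Figure D5:**
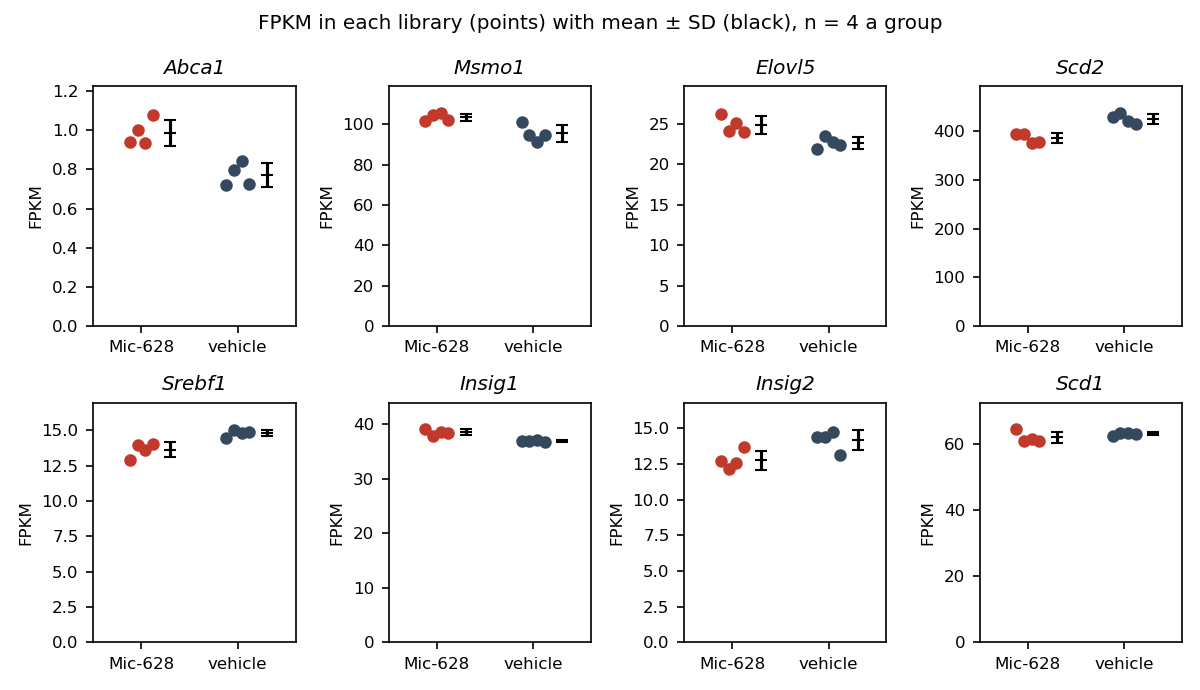
FPKM in each library (points) with mean ± SD in black (n = 4 a group) for the 4 called genes in the upper row and for Srebf1, Insig1, Insig2 and Scd1 in the lower row, Mic-628 (red) left of vehicle (dark blue), all axes from 0. Abca1 and Scd2 show the clearest gaps between groups, upward for Abca1 with Mic-628 and downward for Scd2, and the Scd1 points overlap.

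The 36 genes together took 0.771% to 0.784% of counts in Mic-628 libraries and 0.789% to 0.802% in vehicle libraries. Scd2 alone made up 28.6% to 29.7% of these reads with Mic-628 and 30.5% to 32.0% with vehicle. Without Scd2 the shares were 0.549% to 0.552% with Mic-628 and 0.538% to 0.553% with vehicle, ranges that overlapped.

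A list of 45 further genes of the same routes gave 36 that could be tested. Of these, 2 rose and 3 fell (13.9% called, against 4.37% of all rows), with a median log2 fold change of -0.027. Erlin1, an endoplasmic reticulum protein that binds SCAP and INSIG complexes in human cells, had 38.5 to 39.3 FPKM with Mic-628 and 33.9 to 35.5 FPKM with vehicle (0.16 on the log2 scale, with an edgeR adjusted p of 0.00302). Acsl3, which activates long-chain fatty acids at lipid droplets, had 21.9 to 22.5 FPKM with Mic-628 and 19.0 to 20.7 FPKM with vehicle (0.17 on the log2 scale, with an edgeR adjusted p of 0.00370). Neither gene's groups overlapped. Both calls held without any single library. They ended with the block in DESeq2 (adjusted p 0.0560 for Erlin1 and 0.0638 for Acsl3). They also ended without both libraries of batch 3 (edgeR adjusted p 0.0601 for Erlin1 and 0.0570 for Acsl3). Slc25a1, the mitochondrial citrate carrier that feeds Acly, fell by 0.13 on the log2 scale (64.1 to 67.7 FPKM with Mic-628, 70.2 to 74.2 FPKM with vehicle; edgeR adjusted p = 0.0207). The call of Slc25a1 ended when Mic-628 replicate 1, 3 or 4 or vehicle replicate 2 was left out (adjusted p 0.0543 to 0.0848). The same call ended without both libraries of any 1 batch (edgeR adjusted p 0.0662 to 0.139) and with the block in DESeq2 (adjusted p 0.297). By limma the adjusted p was 0.0608 on log2(FPKM + 1) and 0.0630 on log2(FPKM + 0.1). Utp14b, a row inside Acsl3, also rose by 0.25, and how reads of overlapping rows were divided is not given in the sources used here.

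Scd3, another desaturase gene near Scd2 on chromosome 19, was weakly expressed, with 0.417, 0.574, 0.385 and 0.408 FPKM in Mic-628 libraries 1 to 4, against 0.738, 0.786, 0.822 and 0.568 FPKM in vehicle libraries 1 to 4. Mic-628 replicate 2 lay just above vehicle replicate 4, and the rest of the groups were apart. On the log2 scale Scd3 fell by 0.70, with SE 0.16 and an edgeR adjusted p of 0.0123, on 28.5 to 50 reads per Mic-628 library and 45.5 to 64.5 per vehicle library. It was not called without Mic-628 replicate 3 or vehicle replicate 3 (adjusted p 0.0618 and 0.0518), nor with the block in DESeq2 (0.297). On log2(FPKM + 1) the Scd3 difference was -0.26 (limma adjusted p = 0.158) and on log2(FPKM + 0.1) it was -0.60 (limma adjusted p = 0.168). Scd4, of the same family, had 0.432 to 0.537 FPKM with Mic-628 and 0.518 to 0.564 FPKM with vehicle and was not called (log2 fold change -0.14). Of the 101-base stretches of Scd3, 2.51% occur in Scd1. Among the genes not tested, Elovl2, Elovl3, Mlxipl, Ch25h, Cyp27a1 and Cyp7b1 had 0 FPKM on average in both groups.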

How the data were processed

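The tools named are HOMER 4.11, STAR 2.7.10a and bcl2fastq, and the build is GRCm39 (mm39), per the submitters' processing notes, which state no roles. The authors deposited exon read counts, in steps of 0.5 and so treated as estimated counts, and a matching FPKM table. FPKM rebuilt from counts, exon length and header totals differed by at most 5e-04. 0 columns were left unmatched to samples.

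The estimated counts were rounded to whole numbers. The test was that of edgeR 4.0.16 (R 4.3.3) by quasi-likelihood, after filterByExpr (minimum count 10, leaving 17128 rows) and TMM scaling, Mic-628 over vehicle with no batch term, with Benjamini-Hochberg adjustment over all rows. The biological coefficient of variation was 3.47%. Rows under an adjusted p of 0.05 are called. Ratios of genes were tested by exact permutation. Intervals are 95%. On simulated counts for this comparison (16967 genes), 10 of 50 genes changed by 1.1-fold, 27 of 50 at 1.2-fold and 48 of 50 at 1.5-fold were recovered, with 7 false calls.

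The labels state shared batch numbers, so the libraries can be paired by them and the block was an alternative. Over 10292 genes, same-numbered deviations correlated at -0.092, 0.074, -0.021 and -0.095. Differently numbered pairs ran from -0.117 to 0.141, a range that holds all of these. Chi-square per gene between replicates was 1.58 to 4.78, so none was a duplicate. Other alternatives used DESeq2 1.42.0, limma 3.58.1 and other scalings, filters and left-out libraries. Named are all 36 genes, with full statistics for the regulators and called genes, and called genes of the further list, of which 1 is not reported here. Genes and lists were chosen with earlier results of these data known. Strand use in counting is not given in the sources used here. Figures used matplotlib 3.10.9.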

Additional observations from a re-analysis of the deposited data

Results flagged for a closer look

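In 9 of 80 groups of 4 libraries examined over 40 genes, the highest or lowest FPKM stood apart from the other 3 values by more than the Dixon 95% critical value; chance gives about 1 in 20. In Mic-628 replicate 1, Mvd was low at 43.8 FPKM (the others 48.9 to 49.5) and Dhcr7 was high at 5.70 FPKM (the others 4.58 to 4.72). In Mic-628 replicate 2, Slc25a1 was high at 67.7 FPKM (64.1 to 64.5) and Scd3 at 0.574 FPKM (0.385 to 0.417). In Mic-628 replicate 4, Idi1 was high at 12.1 FPKM (11.001 to 11.173). In vehicle replicate 1, Cyp51 was high at 77.0 FPKM (73.1 to 73.7), Slc25a1 was high at 74.2 FPKM (70.2 to 70.7) and Fads1 was low at 102.4 FPKM (105.2 to 105.4). In vehicle replicate 3, Ebp was high at 23.2 FPKM (21.8 to 21.9). Cyp51 was called without vehicle replicate 1 (log2 fold change 0.11, edgeR adjusted p = 0.0260).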

How the results depend on the processing

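Of the 35 genes tested, 27 kept the sign of their log2 fold change under all 22 alternatives, and 29 of the 31 not called were never called; Cyp51 and Elovl6 were called under 3 and 2 of them. The count of genes higher, 3, was 1 with the replicate block in edgeR, 0 with the block in DESeq2, 0 by limma on log2(FPKM + 1) and 0 on log2(FPKM + 0.1), 1 at an adjusted p under 0.01, and 0 to 3 with libraries or batches left out. The count lower, 1, was 0 to 1 when libraries or batches were left out. The count in the further list, 5, was 0 with the block in DESeq2, 3 by limma at either pseudocount, 3 at an adjusted p under 0.01 and 0 to 5 on leaving out libraries or batches. With the block in DESeq2, 243 rows of all genes were called, against 749, 624 with the block in edgeR, and 277 and 273 by limma on log2(FPKM + 1) and log2(FPKM + 0.1). The Insig1 to Insig2 difference was 0.21 and the Scd1 to Scd2 difference 0.12 within pairs (exact p = 0.125 each), and 0.19 to 0.25 and 0.11 to 0.14 without single libraries, where the exact p was 0.0286 or 0.0571. Values near 0 changed sign: Sqle was 0.00076 in DESeq2, 0.0013 with the block in DESeq2, 0.00084 with DESeq2 size factors, 0.0046 with library size only and -0.016 to 0.021 with libraries left out, and Acly was 0.0020 with library size only and -0.020 to 0.012 with libraries left out. With libraries left out, Srebf2 was -0.044 to 0.0034, Fdps -0.013 to 0.055, Hsd17b7 -0.044 to 0.058, Acaca -0.035 to 0.061, Elovl1 -0.0013 to 0.063 and Fads2 -0.027 to 0.010. The cause of these changes was not tested. Abca1 and Scd3 were the least counted of the genes called, and whether depth limits their calls was not tested. The call of Abca1 ended under 5 of 22 alternatives and that of Scd3 under 7 of 21. Of 22 alternatives, calls ended under 15 for Msmo1, 16 for Elovl5 and 12 for Slc25a1. They ended under 2 each for Scd2, Acsl3 and Erlin1.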
